A study of Mus musculus with 4 samples.

Results

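Metallothioneins are small cysteine-rich proteins that bind zinc and copper, and zinc transporters move zinc across membranes. Here 10 genes of this system were described in mouse colon adenoma organoids: the metallothionein genes Mt1, Mt2, Mt3 and Mt4, the metal-sensing transcription factor gene Mtf1, the zinc exporter genes Slc30a1 and Slc30a2, and the zinc importer genes Slc39a4, Slc39a6 and Slc39a8. They were chosen by symbol after the genotype differences of these arrays, large for Mt4, Slc30a2 and Mt3, had been seen, so their genotype differences are given as a description with no test. Of the 10 genes, 9 had a probe set annotated to that gene alone, 14 probe sets in all among the 28898 with a single named gene, and all 14 lay above the level used to leave out dim genes. No value is given for Mt2, for which the annotation used here names no probe set. A further 2 probe sets name Mt1 or Mtf1 together with another gene and were left out.

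The arrays came from 3D cultures of colon adenoma epithelium on a C57BL/6 background, grown for 7 days with EGF at 50 ng/ml, N-2 and B-27 supplements, and a Rock inhibitor at passaging. Both groups carried the VillinCreERT2 recombinase, which is active in intestinal epithelium after tamoxifen, and Apcfl/fl alleles, so Apc, the suppressor of Wnt signalling, is deleted in the controls too. The group labelled Apc null was Gata6+/+ and the group labelled Gata6 null/Apc null was Gata6fl/fl, with 2 arrays each, 1 from batch A and 1 from batch B. The labels give no age or sex and do not say whether the replicates came from separate mice, so p-values may measure only the spread between cultures. The comparison asks which genes depend on GATA6, a zinc finger transcription factor of the intestine, in adenoma cells.

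Values are log2 expression units, and array medians lay between 4.91 and 5.04. All 10 intestinal epithelium markers examined lay above the filter level, Epcam between 11.29 and 11.53 on the 4 arrays. Their mean level was 10.40 and 10.26 in the Apc null arrays and 10.02 and 9.92 in the others, and 7 of 10 had groups that did not overlap, each of them lower. Over all 11874 genes tested, 17.3% had groups that did not overlap and were lower. Of all genes, 946 had an unadjusted p under 0.05, 0.648% passed in limma and 6.88% with the batch letter as a block. None of the 10 markers passed in limma, and 2 had an unadjusted p under 0.05. With the block 1 passed, the intestinal transcription factor gene Cdx2, at 9.13 and 9.41 against 7.29 and 8.11 (difference -1.57, adjusted p = 0.228, or 0.0054 with the block and 0.131 to 0.594 over the other alternatives). The deleted gene itself was not lower where the labels call it null: Gata6 gave 8.89 and 8.61 in the Apc null arrays, batch A first, against 9.37 and 9.40 in those labelled Gata6 null/Apc null (adjusted p = 0.418, or 0.0392 with the batch letter as a block). The other probe set of Gata6 was also higher, at 8.83 and 8.65 against 9.11 and 9.21. Whether either probe set lies in the deleted part of Gata6 is not known here, so every direction below rests on the labels. Apc, targeted in both groups, gave 8.35 and 8.34 against 8.34 and 8.14. Each genotype difference is the mean of the labelled Gata6 null/Apc null arrays less the mean of the Apc null arrays.

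Zinc is buffered in the cell by metallothioneins, exported from the cytosol by the Slc30 (ZnT) family and brought into it by the Slc39 (ZIP) family. The zinc finger protein MTF1 senses free zinc and binds metal response elements in the promoters of Mt1, Mt2 and Slc30a1, which are induced by zinc and cadmium in most cells. Mt3 is known from the brain and Mt4 from stratified squamous epithelium. In the intestine, Slc39a4 takes up dietary zinc and Slc30a2 loads zinc into secretory granules of Paneth cells.

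At the chosen, brightest probe set of each gene, both arrays labelled Gata6 null/Apc null lay above both Apc null arrays for 5 of the 9 measured genes, and below for 1. Over all 11874 genes tested these shares were 14.7% and 17.3%. The 5 genes were Mt1, Mt3, Mt4, Slc30a2 and Slc39a8, and the lower one was Slc39a4. The groups overlapped for Mtf1, Slc30a1 and Slc39a6. The median difference over the 9 genes was 1.01, against -0.03 over all genes tested. The genes were listed with large differences already seen, so this median and the share of higher genes are in part fixed by that choice.

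**Figure D1:**
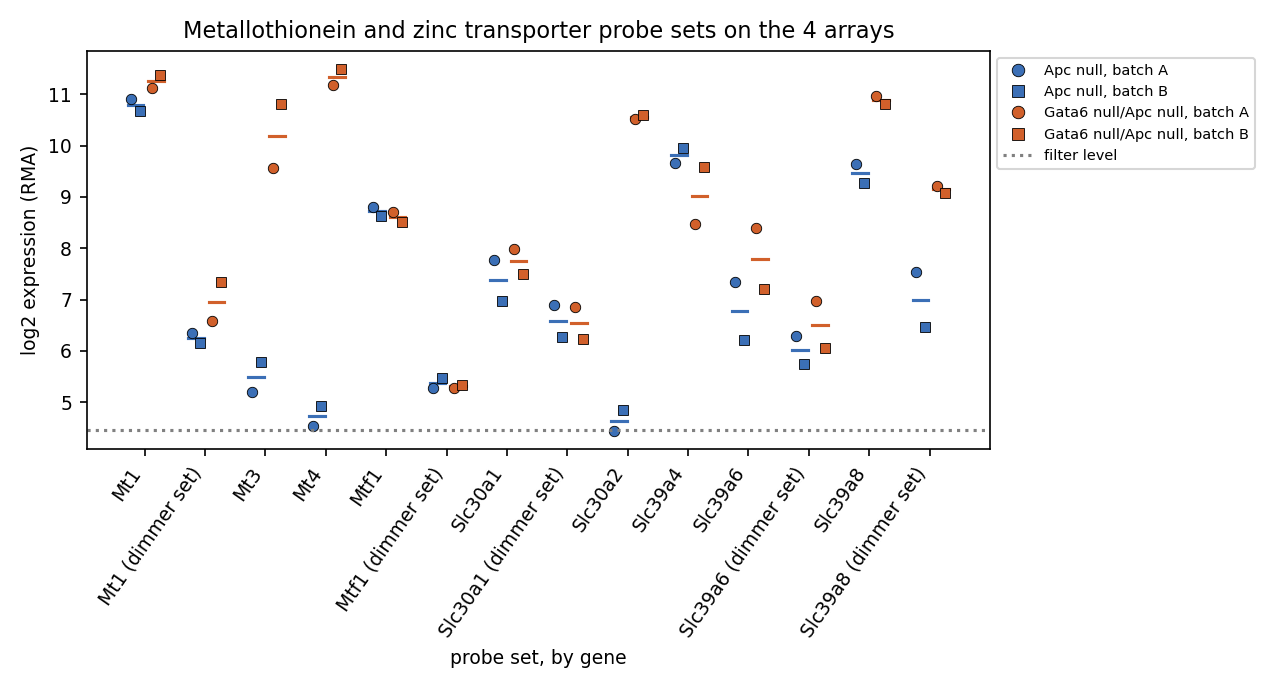
Log2 expression of the 14 probe sets (x axis, by gene) on the 4 arrays, with circles for batch A, squares for batch B, short lines for the mean of the 2 arrays of a group and a dotted line at the filter level of 4.45. The orange points of Mt3, Mt4 and Slc30a2 lie between 9.57 and 11.49 and the blue ones between 4.44 and 5.78.

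The metallothioneins differed in the size of their genotype difference. Mt4, which encodes the squamous epithelial form, read 4.53 in batch A and 4.93 in batch B of the Apc null arrays, and 11.17 and 11.49 in those labelled Gata6 null/Apc null. Both Apc null readings were below the median of their own array, near the floor of the values, so no fold or rank is given and the difference is of these log2 values only. The group means were 4.73 ± 0.29 and 11.33 ± 0.23 (SD, n = 2 per group), a log2 difference of 6.64 within batch A and 6.56 within batch B. As in any bulk sample, a change in the number of cells that express a gene and a change in RNA per cell cannot be told apart.

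Mt3, the form that is abundant in brain, read 5.21 and 5.78 in the Apc null arrays and 9.57 and 10.82 in those labelled Gata6 null/Apc null, batch A first. The groups were far apart, with a gap of 3.79 between the nearest arrays, yet the labelled Gata6 null/Apc null arrays differed from each other by 1.25. The group means were 5.49 ± 0.40 and 10.19 ± 0.89 (SD, n = 2 per group), a fold of 20.5 in batch A against 33.0 in batch B.

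Mt1, the widely expressed and metal-inducible form, was already bright in the Apc null arrays. Its brighter probe set read 10.91 and 10.68 there and 11.13 and 11.38 in those labelled Gata6 null/Apc null, a difference of 0.46 with SDs of 0.16 and 0.18. The groups were separated by 0.21, close to the spread within them. That probe set can match shared sequence, and metallothionein genes are close copies of each other, so its signal may not belong to Mt1 alone. The dimmer probe set of Mt1 read 6.34 and 6.15 against 6.58 and 7.34, a difference of 0.72, most of it from batch B (1.19 against 0.24 in batch A). Mt1 thus differed by 0.46 to 0.72 at its 2 probe sets, where its neighbours Mt4 and Mt3 differed by 6.60 and 4.70.

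Mt4, Mt3, Mt2 and Mt1 lie in that order in one cluster on mouse chromosome 8. The flanking genes were examined to see how far along the chromosome the difference extended, taking the 5 nearest protein-coding genes on each side in the RefSeq table of the GRCm38.p6 assembly. Of these 10, 7 were tested, and 0 passed an adjusted p of 0.05 in limma, although 2 had an unadjusted p under 0.05, Bbs2 and Cpne2. With the batch letter as a block, 1 passed. Over all genes tested, 0.648% passed without the block and 6.88% with it, and 946 of 11874 had an unadjusted p under 0.05. The flanking gene was Bbs2, next to Mt4, which encodes a subunit of the BBSome complex of cilia. Bbs2 read 6.74 and 6.94 in the Apc null arrays and 7.64 and 8.56 in those labelled Gata6 null/Apc null, a difference of 1.26 (SE 0.38, adjusted p = 0.421, or 0.0256 with the block and 0.245 to 0.942 over 9 other alternatives). Batch A gave a difference of 0.90, batch B one of 1.62.

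The other flanking genes did not pass in either fit. On the Mt4 side, Ogfod1, which encodes a ribosomal protein hydroxylase, differed by 0.02, Nudt21, a subunit of the mRNA cleavage machinery, by 0.24 and Gnao1, a G protein subunit, by -0.10. These are the brightest probe sets, and dimmer ones differed by -0.40 for Ogfod1, 0.50 for Nudt21, and 0.23 and -0.06 for Gnao1. The groups did not overlap at the dimmer probe set of Ogfod1. Beyond Mt1, Nup93, a nuclear pore component, differed by -0.12, the endoplasmic reticulum stress gene Herpud1 by -0.28 and Cpne2, a copine, by -0.61 (adjusted p = 0.575, or 0.0782 with the block). Slc12a3 and Nlrc5 were below the filter level and not tested. Their differences were -0.09 and 0.48, and the groups of Nlrc5 did not overlap.

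**Figure D2:**
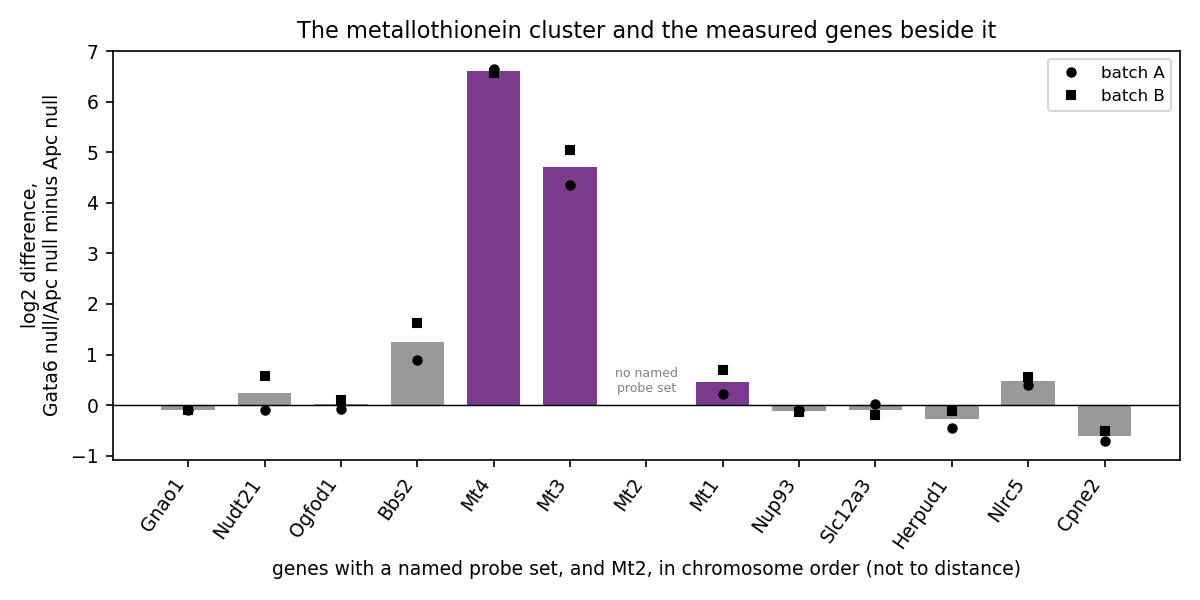
Log2 difference (y axis) of the metallothionein genes, in purple, and of the measured protein-coding genes beside them, in grey, in chromosome order (x axis, not to distance). Bars are the differences of group means, with circles for batch A and squares for batch B; Mt4 stands at 6.60, Mt3 at 4.70, Bbs2 at 1.26 and Mt1 at 0.46.

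Promoter sequence was compared because the genes of this 1 cluster differed so unequally. RefSeq windows of the GRCm38.p6 build, of 250 bases before each annotated start and 50 from it on, were matched by symbol for 8 of the 10 genes. The starts used for Mt1, Slc30a1 and Slc30a2 lie inside the span that RefSeq gives the gene, since other transcripts start upstream, so their windows may not be the promoter in use. All windows were searched on both strands for the core of the metal response element, TGCACNC or TGCGCNC. The windows of Mt4 and Mt3 before the start are given 5′ to 3′ on the plus strand, with core matches in capitals, since these genes had the largest differences in the cluster. They lie at chr8:94136954-94137203 and chr8:94152357-94152606.
Mt4: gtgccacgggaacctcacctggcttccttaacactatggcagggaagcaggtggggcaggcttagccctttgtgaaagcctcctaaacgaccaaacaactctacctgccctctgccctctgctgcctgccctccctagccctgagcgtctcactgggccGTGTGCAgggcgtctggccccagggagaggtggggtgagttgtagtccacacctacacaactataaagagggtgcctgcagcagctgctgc
Mt3: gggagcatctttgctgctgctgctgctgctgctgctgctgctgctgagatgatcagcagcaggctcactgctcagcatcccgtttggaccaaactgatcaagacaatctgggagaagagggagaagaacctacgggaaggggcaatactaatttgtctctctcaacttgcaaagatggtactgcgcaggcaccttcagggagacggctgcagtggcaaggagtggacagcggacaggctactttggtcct

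Mt4 held 1 core match in the 250 bases, on the minus strand, and Mt3 held 0 there and 1 in the 50 bases that follow. For comparison, the sites of Mt1 and of both exporter genes are given as 30 bases around each match or pair of matches, on the plus strand of the same build, with the core in capitals. They lie at chr8:94179054-94179083 and chr8:94179088-94179117 for Mt1, chr1:191906726-191906755 and chr1:191906799-191906828 for Slc30a1, and chr4:134343247-134343276 for Slc30a2.
Mt1 before the start: gcggtcccgctgTGCACACtggcgctccag
Mt1 after the start: ctcTGCACTCcgcccgaaaagTGCGCTCgg
Slc30a1 before the start: aacgggggttccGAGTGCAaagcaaagttt
Slc30a1 after the start: cgcctccgggccGAGCGCAgtcgccgcgga
Slc30a2 before the start: gtcccGCGCGCAacttcgaGGGCGCAccga

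In the full 300 bases Mt1 held 3 matches, Slc30a1 2 and Slc30a2 2. At least 1 match occurred in 25.7% of all 32851 RefSeq windows of that length, at least 2 in 7.11% and at least 3 in 1.97%. Mt2 held 4, and at least 4 occurred in 0.517% of windows. A GATA motif, AGATAA or TGATAA on either strand, occurred before 1 of the 2 annotated starts of Slc39a8 and in no other window of the 8 genes, against 16.6% of all windows of 250 bases. The TCF motif CTTTGAT occurred in none of the 8, against 3.21% of all windows. No match in these windows overlapped another, and a match is a description of letters, not of a bound site.

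Mtf1, which encodes the metal sensor, had small differences. Its brighter probe set read 8.80 and 8.63 in the Apc null arrays and 8.70 and 8.51 in those labelled Gata6 null/Apc null, a difference of -0.11 with SDs of 0.12 and 0.14. The dimmer one read 5.29 and 5.47 against 5.28 and 5.35. The groups overlapped at both probe sets, although within each batch the brighter one was lower, with differences of -0.10 in A and -0.13 in B. They also overlapped at the left-out probe set that names Mtf1 together with another gene, where the difference was -0.26.

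Of the exporters, Slc30a2 differed by nearly as much as Mt4. Slc30a2, the vesicular exporter ZnT2, read 4.44 and 4.85 in the Apc null arrays and 10.51 and 10.60 in those labelled Gata6 null/Apc null. The arrays labelled Gata6 null/Apc null agreed within 0.09 of each other, and both Apc null readings were below the median of their own array, the one of batch A also just under the filter level of 4.45. The group means were 4.64 ± 0.29 and 10.55 ± 0.06 (SD, n = 2 per group), a log2 difference of 6.07 within batch A and 5.75 within batch B, again from readings near the floor.

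Slc30a1, the exporter ZnT1 of the plasma membrane and like Mt1 a target of MTF1, read 7.77 and 6.98 in the Apc null arrays and 7.98 and 7.51 in those labelled Gata6 null/Apc null at its brighter probe set. Its groups overlapped, with a difference of 0.37 and SDs of 0.56 and 0.34, and the difference became -0.03 on leaving out Apc null B and 0.77 on leaving out Apc null A. The dimmer probe set read 6.90 and 6.27 against 6.86 and 6.24, a difference of -0.04. The 2 exporters therefore stood far apart in their genotype difference, 5.91 for Slc30a2 and 0.37 for Slc30a1.

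The importers went in different directions. Slc39a8, the importer ZIP8 of zinc, manganese and cadmium, read 9.64 and 9.28 in the Apc null arrays and 10.97 and 10.80 in those labelled Gata6 null/Apc null. Batch A gave a fold of 2.51 and batch B one of 2.88, from means of 9.46 ± 0.26 and 10.89 ± 0.12 (SD, n = 2 per group). Its other probe set read 7.53 and 6.47 against 9.22 and 9.08, a fold of 3.23 and 6.13. Both probe sets of Slc39a8 had groups that did not overlap.

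Slc39a6, the importer ZIP6, read 7.35 and 6.22 in the Apc null arrays and 8.39 and 7.21 in those labelled Gata6 null/Apc null. Within each batch its difference was nearly the same, 1.04 in batch A and 0.99 in batch B, but the groups overlapped because both batch B arrays were lower. At the dimmer probe set the readings were 6.28 and 5.74 against 6.97 and 6.06, a difference of 0.69 in batch A and 0.31 in batch B.

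Slc39a4, the importer ZIP4 of dietary zinc, was the listed gene with lower readings in those labelled Gata6 null/Apc null. It read 9.67 and 9.95 in the Apc null arrays and 8.48 and 9.58 in the others. The nearest arrays of the groups were 0.09 apart, and the batch A array labelled Gata6 null/Apc null was well below the rest. Batch A gave a difference of -1.19 and batch B one of -0.38, and leaving that array out gave -0.23.

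**Figure D3:**
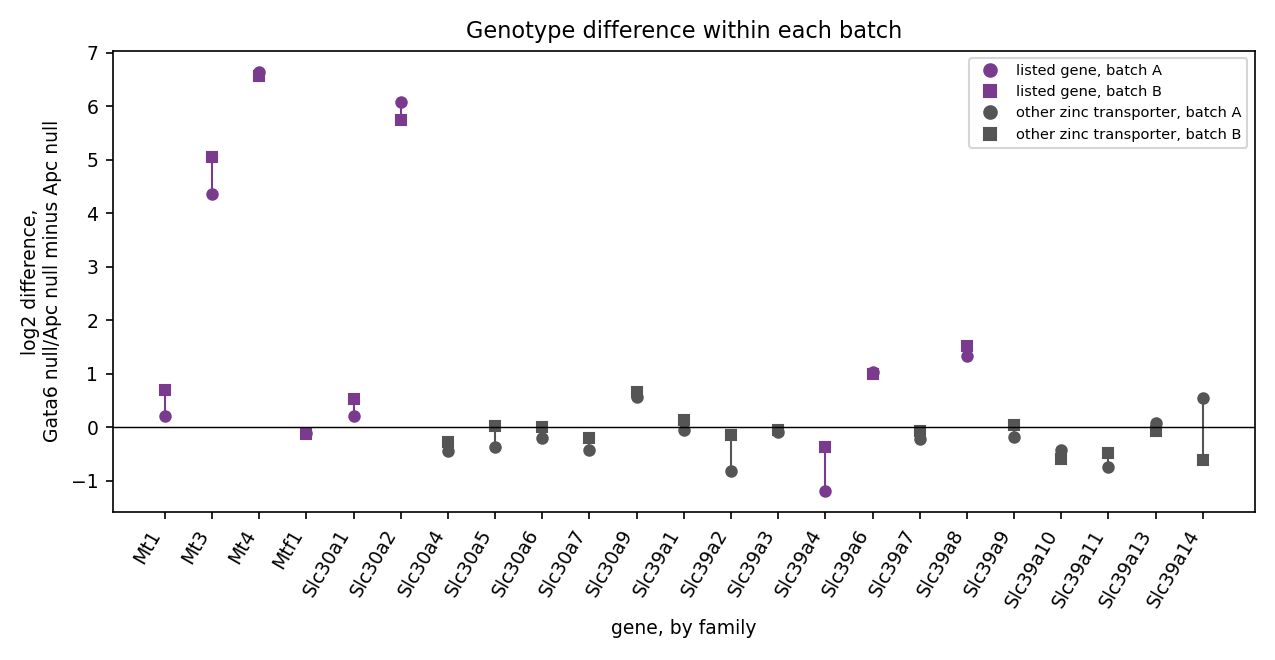
Log2 difference (y axis) within batch A (circles) and batch B (squares) for the listed genes, in purple, and for the other zinc transporter genes tested, in grey, by family (x axis). Mt3, Mt4 and Slc30a2 stand between 4.36 and 6.64, and each grey point lies between -0.82 and 0.66.

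The rest of both transporter families was compared between genotypes. The members with large differences had been taken out with those differences known, so a low count in the remainder is in part fixed by that choice. Of 19 other Slc30 and Slc39 genes, 14 lay above the filter level, and 0 of 14 passed in limma, with or without the batch as a block. At an unadjusted p under 0.05 there was 1, Slc39a11. The median difference was -0.17 over the 5 exporters and -0.07 over the 9 importers, against -0.03 for all genes. Slc30a9, a mitochondrial zinc exporter, had the smallest p of the exporters and read 7.72 and 8.19 against 8.28 and 8.85, a difference of 0.61 (SE 0.31, adjusted p = 0.842, or 0.0550 with the block). Slc30a4, of endosomal vesicles, differed by -0.36 (SE 0.20, adjusted p = 0.906). Of the importers, Slc39a11 differed by -0.60 (SE 0.23, adjusted p = 0.627) and Slc39a2 by -0.48 (SE 0.21, adjusted p = 0.729). A p that misses the threshold with 2 arrays a group does not show that these genes were level.

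Genes that share metals, stress signals or hormones with the metallothioneins were examined in 5 lists. Of 41 genes tested in the lists, 0 passed in limma, 4 had an unadjusted p under 0.05, and 4 passed with the batch as a block, 1 higher and 3 lower, where the share of all genes that passed with the block was 6.88%. Among the genes reported to depend on MTF1, 5 were tested, of which the importer Slc39a10 also stands in the transporter list. Gclc, the catalytic subunit of the first enzyme of glutathione synthesis, read 8.55 and 8.82 in the Apc null arrays and 7.88 and 7.78 in the others, a difference of -0.86 (SE 0.22, adjusted p = 0.321, or 0.0278 with the block). The metal stress list of 5 genes had no call in either fit. Its members with the smallest p were the small heat shock protein gene Hspb1, which differed by 1.57 (SE 0.59, adjusted p = 0.612), and the HSP70 gene Hspa1b, by -0.85 (SE 0.42, adjusted p = 0.818).

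For copper, which metallothioneins also bind, 1 of 13 genes tested passed with the block. Slc31a1, the copper importer CTR1, read 8.42 and 9.30 in the Apc null arrays and 9.46 and 9.95 in the others, a difference of 0.85 (SE 0.36, adjusted p = 0.707, or 0.0179 with the block). For iron, 2 of 10 tested passed with the block, both lower, a small list to set against the 6.88% of all genes. Heph, the copper-dependent iron oxidase hephaestin, read 7.15 and 7.77 against 5.74 and 6.32, a difference of -1.43 (SE 0.36, adjusted p = 0.307, or 0.00904 with the block). Tfrc, the transferrin receptor, read 10.28 and 9.84 against 9.57 and 9.38, a difference of -0.58 (SE 0.21, adjusted p = 0.565, or 0.0294 with the block). Over the 9 alternatives without the block, the adjusted p of Gclc, Slc31a1, Heph and Tfrc lay between 0.274 and 1.00.

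Glucocorticoids are a further class of inducers of Mt1 and Mt2. Of 8 glucocorticoid response genes tested, 0 passed in limma with or without the block, and 0 had an unadjusted p under 0.05. Sgk1, a kinase gene, read 5.73 and 5.96 in the Apc null arrays and 5.84 and 8.79 in the others, so its difference of 1.47 (SE 0.98, adjusted p = 0.997) came from the batch B array. The receptor gene Nr3c1 differed by -0.39 (SE 0.31, adjusted p = 1.00).

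Markers of the cell types in which Mt4, Mt3 and Slc30a2 are best known were read beside these genes. Of the squamous epithelium markers, 10 of 10 measured lay above the filter level, Krt4 brightest. That level lies below every array median, so passing it does not show that a marker was expressed. Krt1 and Trp63 read below the median of each of the 4 arrays, near the floor of the values. The probe sets of Krt14 and Lor can match shared sequence, so their signal may not belong to those genes alone. The mean level of the list was 6.91 and 6.94 in the Apc null arrays and 6.29 and 6.56 in those labelled Gata6 null/Apc null. Its median difference was -0.30. The groups did not overlap for 5 of 10, higher for Krt13 and lower for the rest. Over all genes tested, 14.7% did not overlap and were higher, and 17.3% did not overlap and were lower. Of all genes tested, 946 of 11874 had an unadjusted p under 0.05, and 6.88% passed with the block. Of these 10 squamous markers, 0 passed in limma, 3 had an unadjusted p under 0.05, and 2 passed with the block, both lower. They were Krt4 (difference -0.48, adjusted p = 0.319, or 0.0252 with the block) and the cornified envelope gene Lor (difference -2.32, adjusted p = 0.153, or 0.0031 with the block). Over the alternatives without the block, their adjusted p lay between 0.0847 and 0.814. Krt13, a keratin of internal squamous epithelia, was not called but read higher, 5.45 and 6.08 against 6.44 and 6.78. Krt14 and Trp63 differed by 0.29 and 0.05, with groups that overlapped. The mean also holds Sprr1a (difference -1.86), whose batch A array in the labelled Gata6 null/Apc null group read 4.83 where the other arrays read 8.59 to 8.82. Of 8 neuron and glia markers, 3 were above the filter level, and the mean level was 4.47 and 4.44 against 4.54 and 4.27. The 3 Paneth cell markers measured of 6 listed had a mean of 7.62 and 8.01 against 7.07 and 7.47, lower where Slc30a2 was higher. Of these 3, 0 passed in limma, 1 had an unadjusted p under 0.05, Lyz1 (difference -0.58, adjusted p = 0.389), and 1 passed with the block, Mmp7 (difference -0.78, adjusted p = 0.845, or 0.0069 with the block and 0.508 to 1.00 over the other alternatives). The shares over all genes are those given for the squamous markers, and 3 genes are too few to set against them. The lists of fibroblasts (1 of 6 measured above the filter level), immune cells (1 of 5) and endothelium (3 of 5) had mean levels between 3.69 and 4.51 on the 4 arrays. The part of any of these cell types, or of the lower intestinal epithelium markers, in the differences of Mt4, Mt3 and Slc30a2 was not tested.

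The batch letter, on which the genes were not chosen, allowed a test. In a limma fit with genotype and batch as terms, 2 of the 9 genes passed an adjusted p of 0.05 for the difference of batch B minus batch A, against 16.6% of all genes tested. Slc39a6 was lower in batch B, with differences of -1.13 in the Apc null arrays and -1.19 in those labelled Gata6 null/Apc null, and its fitted difference was -1.16 (SE 0.17, adjusted p = 0.0147). Its adjusted p was between 0.00624 and 0.0403 over 5 other settings. Mt3 was higher in batch B, by 0.57 and 1.25 in the same order, with a fitted difference of 0.91 (SE 0.20, adjusted p = 0.0353). Mt3 did not pass without a trend in the moderation (adjusted p = 0.0697).

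The 7 other genes did not pass. Slc30a1 had batch differences of -0.79 and -0.48 in the 2 genotypes (adjusted p = 0.0543), and Slc39a4 of 0.29 and 1.10 (adjusted p = 0.0613). Both passed when no filter on low values was used and when the filter was set at the 60th percentile. Slc30a1 also passed with the mean of its probe sets (adjusted p = 0.0410), and Slc39a4 did not pass under that setting. Mt4 and Slc30a2, whose genotype differences were largest, had batch differences of 0.36 (SE 0.14, adjusted p = 0.135) and 0.25 (SE 0.17, adjusted p = 0.351). The batch difference had the same sign in both genotypes for 8 of the 9 genes, against 73.4% of all genes, and Mt1 was the exception.

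**Figure D4:**
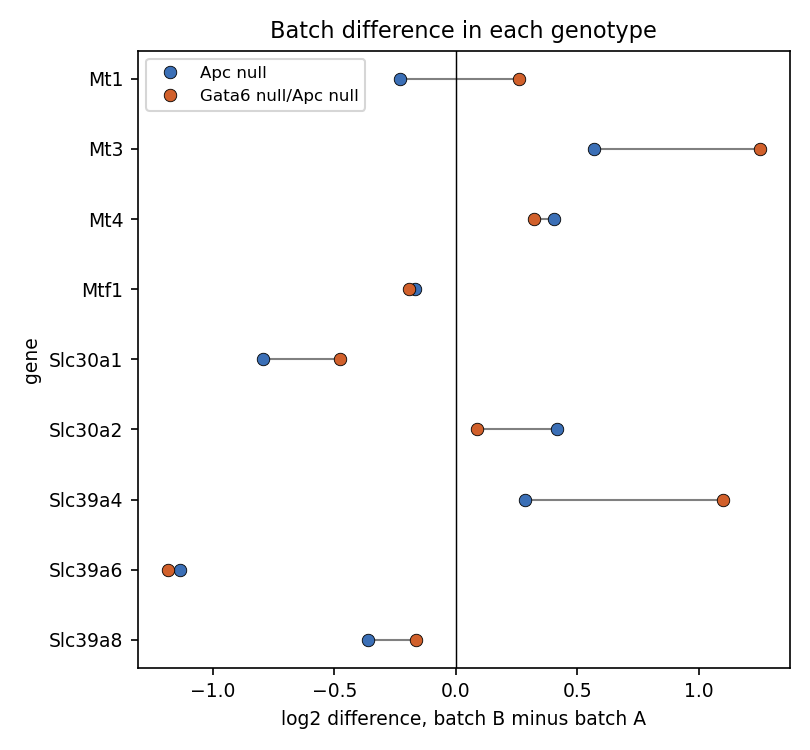
Log2 difference of batch B minus batch A (x axis) for each listed gene (y axis), in blue for Apc null and in orange for Gata6 null/Apc null, joined by a line. Slc39a6 lies near -1.16 in both genotypes, and Mt1 lies at -0.23 and 0.26.

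The genes whose centred profile over the 4 arrays was nearest to that of Mt4 were Wif1, a secreted Wnt inhibitor, Apcdd1, a membrane inhibitor of Wnt signalling, and Rhoj, a small GTPase. Their Euclidean distances were 0.47, 0.56 and 0.57 log2 units, and Rhoj read 4.32 and 4.31 in the Apc null arrays and 10.34 and 10.53 in the others. The profile nearest to Slc30a2 was that of Rhoj too, at 0.37, followed by Spock2 at 0.59 and Wif1 at 0.61. Profiles were centred but not scaled, so genes with a genotype difference of like size come out nearest. The differences were 6.28 for Wif1, 6.51 for Apcdd1, 6.12 for Rhoj and 5.79 for Spock2. The listed genes were chosen on that contrast, so these distances show no link between the genes beyond it. Within a distance of 1 there were 4 genes for Mt4 and 5 for Slc30a2. For Mt1 there were 9107, so its nearest genes, Cnpy4, Rnf122 and Cfap97 at 0.06 to 0.07, say little beyond the small size of its differences.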

How the data were processed

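Each deposited value is the log2 expression of a probe set. RMA and affy are named for it in the submitters' processing notes, with versions not given in the sources used here. The RMA method quantile-normalizes the arrays and compresses low values towards a floor. Per the labels, 25 ng of RNA was amplified for each array, which can add noise to dim probe sets. Genes were named from the platform annotation, 1 probe set a gene (highest mean), and genes under the 40th percentile (4.45) were left out, leaving 11874 of 17097. Groups were compared genome-wide with limma 3.58.1 in R 4.3.3 (trend moderation, two-sided, Benjamini-Hochberg over all genes, threshold 0.05). The fit was tested on simulated data with independent noise and no batch effect. These arrays share a batch difference, so that test does not show how the fit behaves under it. The labels give arrays of both genotypes the same batch letter, which pairs them, and batch differences of the genotypes correlated at 0.675 across genes. The fit with that block has 1 residual degree of freedom. The listed genes, gene lists and tests were chosen with earlier results of these data known. Named were all listed genes, all tested flanking genes, of each list other than markers the genes past the threshold (with or without the block) or the 2 with the smallest p, Gata6 and Apc, and the 3 nearest profiles. Markers past the threshold, Epcam, Krt1, Krt13, Krt14, Trp63, Sprr1a and Lyz1 were named after their values were seen. The alternatives were other filters, no trend, other probe set choices and leaving out each array. The precision is limited by having 2 arrays a group.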

Additional observations from a re-analysis of the deposited data

Results flagged for a closer look

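Batch B minus batch A gave -0.23 for Mt1 in the Apc null arrays and 0.26 in those labelled Gata6 null/Apc null, so the batches moved in opposite directions in the 2 genotypes. Each value rests on 1 array per batch, and the difference between the genotypes was not tested.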

How the results depend on the processing

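With the replicate block, 817 genes passed for genotype in place of 77, and between 33 and 130 passed when 1 array was left out (33 and 48 on leaving out Apc null A or B, 130 on leaving out Gata6 null/Apc null A). The block gave 4 calls in place of 0 among the copper, iron, metal stress, MTF1-dependent and glucocorticoid genes, and 1 in place of 0 among the genes flanking the metallothioneins; the other zinc transporters had 0 calls under each of the 10 alternatives. For the batch difference, the count of listed genes that passed, 2, became 4 without a filter and 4 with the filter at the 60th percentile. It became 3 with the mean of all probe sets of a gene and 1 without a trend. Leaving out an array could not be tested there, with no residual degree of freedom. Of 54 genotype differences of the 9 listed genes under other probe set choices or without 1 array, 53 kept their sign, the exception being Slc30a1 on leaving out Apc null B (-0.03). Many could not have changed it. Genes with 1 probe set kept the same value under other probe set choices, and leaving out 1 array cannot reverse groups that do not overlap. The genes were also chosen on this contrast, so no support is drawn from that count. By more than the spread within groups, 2 differences moved, Mt1 without shared-sequence probe sets (0.72) and Slc39a8 as the mean of its probe sets (1.79). The causes were not tested. Differences of Mt4 and Slc30a2 start from Apc null readings under the array medians, so their size is limited by that floor.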
